A study of Mus musculus with 6 samples.

Results

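Neurogenic progenitor cells of the embryonic mouse retina were described here: the cells to which the authors' deposited cell table gave the label of neurogenic cells, in the 6 libraries of the study. There were 12857 such cells of 67050 in these libraries, with 1880 and 2393 in the 2 Bax het Atoh7 null libraries, 1663 and 1700 in the 2 Bax null libraries and 2739 and 2482 in the 2 Bax null Atoh7 null libraries. All libraries came from retinal cells at embryonic day 14 and were sequenced cell by cell after capture in droplets (10x Genomics 3′ chemistry, version 2), so that each captured transcript was counted once, as a unique molecular identifier (UMI). Atoh7 encodes a transcription factor that retinal cells need to become ganglion cells, and Bax encodes a pore-forming protein of the apoptotic pathway, so that Bax null tissue keeps cells that would otherwise die. The 3 groups were heterozygous for Bax and null for Atoh7, null for Bax with wild-type Atoh7, and null for both genes. All 3 groups thus carried at least 1 mutant Bax allele, and no group had both genes intact. The labels named neither the alleles nor the number of embryos behind a library, and they did not say that 2 libraries of a group came from separate animals. The p-values below therefore measure the spread between these libraries, which may be technical.

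A neurogenic progenitor is a retinal progenitor on its way out of the cell cycle. Such cells switch on proneural genes of the basic helix-loop-helix family, such as Neurog2, and Notch ligands, such as Dll1, which activate Notch in neighbouring cells. In a cell that receives the signal, the cleaved receptor acts with the DNA-binding protein Rbpj to switch on Hes1 and Hes5, repressors that hold cells in the progenitor state. Hes6 is a relative of these repressors that acts against Hes1 and favours neuronal differentiation.

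Facts of the libraries bear on every comparison below. The libraries labelled Bax null Atoh7 null replicates 1 and 2 shared 2596 cell barcodes, 22.0% of the smaller library, against 1.36% to 2.09% for the 14 other pairs of libraries. The shared barcodes had the same cell type in 89.4% of cases, and the median correlation of their expression profiles was 0.288 against 0.0027 for mismatched barcodes, so these 2 libraries were not independent in these cells. Of the neurogenic cells, 344 were in both. For results on the Bax null Atoh7 null group, most counts of genes called are therefore given with and without these cells. The count over all genes in neurogenic cells against Bax null is given only with them. A single gene's value without them is given where its call was lost. Bax itself was counted at 143 and 107 CPM, the UMIs of a gene scaled to the total of the summed cells, in neurogenic cells of the Bax het Atoh7 null libraries, at 17.9 and 14.6 in Bax null, and at 53.9 and 10.9 in Bax null Atoh7 null replicates 1 and 2. The library with the label Bax null Atoh7 null replicate 1 was thus above both Bax null libraries. Whether the counted 3′ end lies in the deleted part of Bax is not given in the sources used here, so these counts do not by themselves check the genotype. The Bax null libraries also stood apart in mitochondrial transcripts: mt-Atp6 was at 8674 and 8956 CPM in their neurogenic cells and at 3.14 to 4.75 CPM in the other 4 libraries. Between Bax null and either other group, genotype and library preparation or counting cannot be told apart. The effect in neurogenic cells was also tested against that in retinal progenitor cells of the same libraries, and the result is given for the lists and for a part of the genes named.

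The promoters of 3 genes that the results turn on are shown here, with the letters that proneural factors or Rbpj are known to bind in capitals. Each is the 250 bases before the start of a RefSeq transcript, 5′ to 3′ on the gene's strand (GRCm38.p6). Hes6 had 2 such windows, of which the one before the most upstream start is shown, and Isl1 and Hes5 had 1 each. Hes6, the first marker of the label, lies on the minus strand, and its window is chr1:91414039-91414288. Isl1, a homeobox gene of ganglion cells, is also on the minus strand, with the window chr13:116309689-116309938. Hes5, a Notch target, is on the plus strand, with the window chr4:154960673-154960922. The capitals mark the E box CAGCTG in Hes6 and Isl1, whose first base lies 171 and 103 bases before the start, and in Hes5 the Rbpj motif GTGGGAA, once as written and once on the other strand as TTCCCAC, 83 and 226 bases before the start.
Hes6: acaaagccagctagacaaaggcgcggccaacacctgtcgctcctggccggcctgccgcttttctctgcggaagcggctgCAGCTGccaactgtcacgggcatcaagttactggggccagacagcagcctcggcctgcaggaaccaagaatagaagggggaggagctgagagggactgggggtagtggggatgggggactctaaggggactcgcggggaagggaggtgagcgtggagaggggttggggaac
Isl1: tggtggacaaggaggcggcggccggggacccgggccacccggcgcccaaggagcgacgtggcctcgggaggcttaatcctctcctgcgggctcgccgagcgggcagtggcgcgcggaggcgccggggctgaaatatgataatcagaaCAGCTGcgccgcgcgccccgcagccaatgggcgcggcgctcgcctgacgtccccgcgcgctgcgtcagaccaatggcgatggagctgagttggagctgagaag
Hes5: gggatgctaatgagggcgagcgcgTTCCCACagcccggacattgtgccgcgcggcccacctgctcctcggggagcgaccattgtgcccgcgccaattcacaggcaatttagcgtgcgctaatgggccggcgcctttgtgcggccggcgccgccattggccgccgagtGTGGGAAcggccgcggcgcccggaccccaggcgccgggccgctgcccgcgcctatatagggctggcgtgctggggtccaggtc
Searched on both strands in windows of the same 250 bases, CAGCTG was held by 13.0% of 32851 RefSeq windows, CAGATG by 14.4%, CATATG by 3.46% and GTGGGAA by 5.42%. Of the 25 genes of the neurogenic transition list described below, 19 had at least 1 window. In any of their windows, 7 of these genes held CAGCTG, 1 held CAGATG, 2 held CATATG and 0 held GTGGGAA. These are counts of genes, which can have several windows, so they cannot be set against the shares of windows. These matches describe letters in a window and say nothing of binding.

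The label fitted its 4 markers. Hes6 was at 2572 and 2469 CPM in neurogenic cells of the Bax het Atoh7 null libraries, 1589 and 1421 in Bax null cells, and 2746 and 2948 in those of Bax null Atoh7 null, against 211 to 376 CPM in progenitor cells. Neurog2 reached 815 and 798 CPM in Bax het Atoh7 null cells, 268 and 221 in Bax null cells, and 685 and 958 in those of Bax null Atoh7 null, against 33.9 to 86.1 CPM in progenitors. Gadd45a, a stress- and growth-arrest-linked gene of cells that leave the cycle, ranged from 931 to 1816 CPM in neurogenic cells and from 49.8 to 100.3 CPM in progenitors. Dll1 ranged from 34.8 to 109 CPM against 5.03 to 17.4 CPM. In all 6 libraries each of the 4 genes was highest in neurogenic cells among the 5 cell types of the table, and for each gene both Bax null libraries were the lowest of the 6. These levels are plain CPM. The genes by which cells were typed are not given in the sources used here and may include these markers, so the differences between cell types are a description and carry no test.

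**Figure D1:**
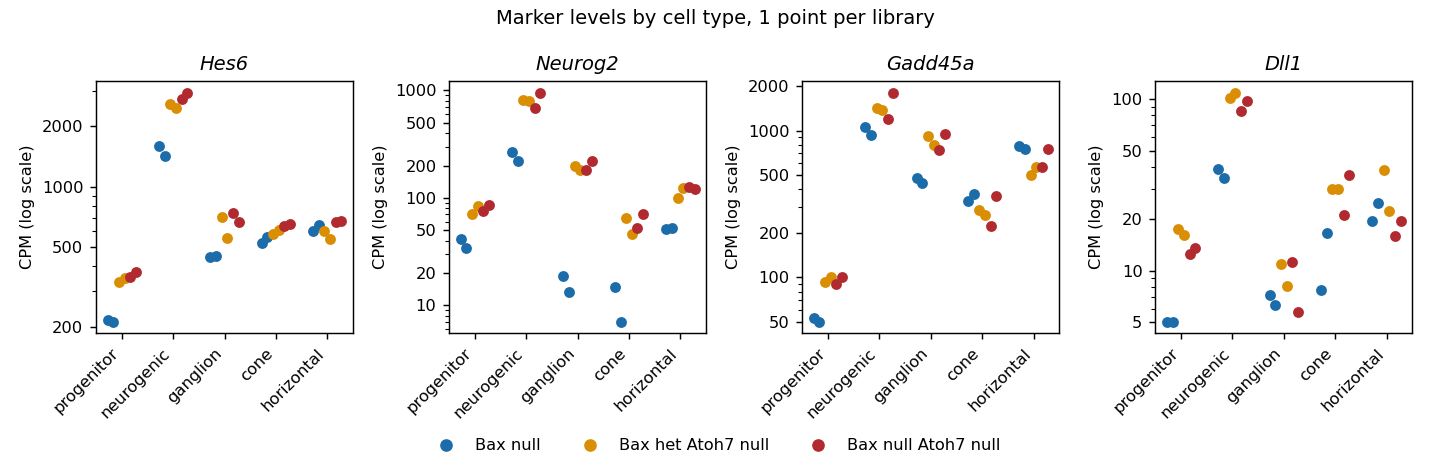
CPM (log axis) of Hes6, Neurog2, Gadd45a and Dll1 in the 5 cell types, 1 point per library, coloured by group, with no averaging. In every panel the neurogenic cells hold the highest points of each library, for Hes6 from 1421 to 2948 CPM.

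Single cells gave the same order at equal depth. When each cell was thinned to 1000 UMIs, Hes6 was found in 63.9% to 84.3% of neurogenic cells per library, in 15.4% to 26.3% of progenitor cells and in 32.6% to 44.8% of ganglion cells. Without thinning, these shares were 89.7% to 93.9% in neurogenic cells and 36.4% to 52.4% in progenitors. Neurog2 was found after thinning in 18.1% to 48.6% of neurogenic cells, with both Bax null libraries lowest, and in 4.05% to 8.3% of progenitors. Median depths were 1532 to 7141.5 UMIs per neurogenic cell and 1713 to 6977 per progenitor, and the 486 neurogenic cells under 1000 UMIs were left out. The share of cells that a doublet caller ranked among the top 8% of their library was higher in the neurogenic label, at 13.0% to 19.9%, than among progenitors, at 5.13% to 6.65%. The part of doublets in the mixed profile was not tested here beyond leaving them out in the comparisons below.

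Against progenitors of the same library, neurogenic cells combined a rise of proneural and ligand genes with lower progenitor genes and with the mitotic part of the cell cycle still on. A gene was counted if its mean reached 5 CPM in neurogenic or in progenitor cells. One that did so only in neurogenic cells was thus higher there on average by the rule. In a list of neurogenic transition genes, all 24 that reached 5 CPM were higher in neurogenic cells in all 6 libraries, with a median log2 difference of 3.63. Of 20 progenitor genes, 18 were lower in all 6, with a median of -0.88. For comparison, 3216 of all 9834 genes at that level were higher and 2700 lower in all 6 libraries, with a median of 0.02. The transition list was not particular to the label, since ganglion cells held its genes at sums of 4615 to 12137 CPM. In neurogenic cells the sums were 5401 to 14082 CPM, above those of ganglion cells in each library, and in progenitors 919 to 2198 CPM.

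Among the ligands and their modifiers, Dll4 ranged from 29.7 to 82.4 CPM in neurogenic cells and from 0.385 to 1.602 CPM in progenitors. Dll3, a divergent ligand that acts within the cell, ranged from 35.5 to 182 CPM against 3.03 to 11.8, and Mfng, a Fringe glycosyltransferase that tunes Notch to its ligands, from 81.5 to 239 CPM against 7.55 to 25.5. All 3 separated both cell types in every library. On the receiving side, Notch1 was also higher, at 125 to 319 CPM against 47.7 to 120 CPM, and so was Rbpj, at 162 to 306 CPM against 53.9 to 72.4 CPM.

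The targets of Notch did not move as 1 group. Hes5, whose promoter holds the Rbpj motif shown above, was higher in neurogenic cells, at 706 to 1133 CPM against 307 to 542 CPM, and was the single gene of the progenitor list with that direction in all 6 libraries. Hes1 was lower in neurogenic than in progenitor cells of each library, at 694 and 842 against 1576 and 1673.5 CPM in Bax null and at 74.3 to 108 against 249 to 394 CPM elsewhere. Notch3 was lower too, at 5.26 to 11.3 CPM against 18.1 to 23.6. Over the list of 24 Notch pathway genes, 22 reached 5 CPM, of which 11 were higher and 4 lower in all 6 libraries.

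The cell cycle lists split by phase. Of 20 genes of G2 and mitosis, 17 were higher in neurogenic cells in all 6 libraries and 0 were lower. Top2a, a topoisomerase of dividing cells, was at 591 to 786 CPM against 413 to 521 in progenitors. Of 20 S phase genes, 2 were higher and 10 lower; the helicase subunit gene Mcm6 was lower in each library, at 53.1 to 175 CPM against 69.4 to 221. Ccnd1, the D-type cyclin of retinal progenitors, was lower in each library, at 959 to 1462 CPM against 1342.5 to 2056. Progenitor genes that were lower included Sfrp2, a secreted Wnt modulator, at 604 to 792 CPM against 1508 to 3163, and Fgf15, a growth factor gene, at 499 to 627 against 1103.5 to 2042.

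Genes of several later fates were already present in these cells. Of the ganglion cell fate list, 15 of the 16 genes at 5 CPM were higher than in progenitors in all 6 libraries. The counts were 6 of 7 for the photoreceptor list and 10 of 11 for the amacrine and horizontal list. Over all genes they were 3216 of 9834. In progenitors, 13 of 22, 10 of 14 and 11 of 16 genes of these lists were under 5 CPM in every library. Members that passed the minimum only in neurogenic cells were higher there by the rule, so these counts were partly fixed in advance. Otx2, a homeobox gene of photoreceptor and bipolar precursors, was at 162 to 361 CPM against 10.1 to 20.7 in progenitors. Onecut1, a factor of horizontal and ganglion precursors, was at 29.1 to 54.9 CPM against 0.142 to 0.867. Stmn2, a tubulin-binding protein of young neurons, was at 161 to 667 CPM against 14.6 to 66.9.

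Transcripts of other tissues were rare. Summed over each list, markers of pigment epithelium reached at most 2.84 CPM in neurogenic cells of any library, lens markers 3.19, microglia markers 5.61 and mesenchyme markers 6.88. Endothelial markers summed to 28.9 to 48.4 CPM, with 5 of the 6 genes, all but Kdr, under 5 CPM in every library. Blood genes were the exception, at 1025 and 853 CPM in Bax null, 107 and 13.9 in Bax het Atoh7 null libraries, and 239 and 9.74 in those of Bax null Atoh7 null. Progenitors of the same libraries held them at like sums, 1070 and 918 CPM in Bax null and 9.61 to 239 elsewhere. Of the 6 blood genes tested, 5 were lower in Bax null Atoh7 null libraries than in Bax null, and 0 of 6 differed in their effect between neurogenic and progenitor cells. Their part in the differences from Bax null was not tested.

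Among the genes with at least 50 CPM in neurogenic cells of every library (2163 genes), 289 were higher there than in each of the 4 other types in all 6 libraries. Ranked by the lowest ratio to the next type in any library, Penk, the proenkephalin gene, came first, at least 12.1-fold above the next type, followed by Neurog2 at 3.74-fold, Hes6 at 2.21-fold, Mybl1 at 2.01-fold, Hes5 at 1.86-fold and Rbpj at 1.75-fold. Penk stood at 149 and 149 CPM in Bax het Atoh7 null cells, 56.6 and 54.3 in Bax null cells, and 114 and 143 in those of Bax null Atoh7 null, against 0.881 to 3.82 in progenitors. The first 20 genes of that ranking also held the mitotic genes Pbk, Hmmr, Tpx2 and Cenpe, the ribonucleotide reductase gene Rrm2, Notch1 and Foxn4, a forkhead gene of amacrine and horizontal precursors. Foxn4 was at 93.1 to 147 CPM, at least 1.45-fold above the next type.

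The label was no single state. The authors had divided its cells into 27 clusters, and across them Hes6 and Sfrp2 ran in opposite directions: Spearman's rho between their levels was -0.83 over the 27 clusters, which share libraries and depth. Neurog2 ran with Hes6 (rho 0.93), Otx2 with Olig2 (0.93) and with Neurog2 (0.86), and Dll1 ran against Hes1 (-0.77). These are descriptions of clusters of the same cells and counts, so no p is given.

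The clusters were filled unequally by the groups. The 10 clusters with Hes6 under and Sfrp2 over the median of clusters, the progenitor-like end, held 43.5% and 52.7% of neurogenic cells in the Bax null libraries and 27.6% to 31.9% in the other 4. The 10 clusters at the other end held 34.3% and 30.5% in Bax null and 44.8% to 50.3% elsewhere. No Bax null library overlapped the Atoh7 null libraries in either share. Cluster 134, with 284 cells, held 6.67% and 9.76% of the Bax null neurogenic cells and at most 0.16% in any other library, and 7 clusters that were nearly free of Bax null cells held 23.7% to 27.1% of the Atoh7 null cells against 3.31% and 2.88%. Since the clusters come from the same counts as the differences between libraries, these shares carry no test. In clusters 85 and 134 the top 10 genes by fold held more markers of another class than of the neurogenic one: Ptf1a, an amacrine and horizontal gene, in cluster 85, and Hes1 with Mki67 in cluster 134. Both clusters were left out in one of the alternative computations.

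**Figure D2:**
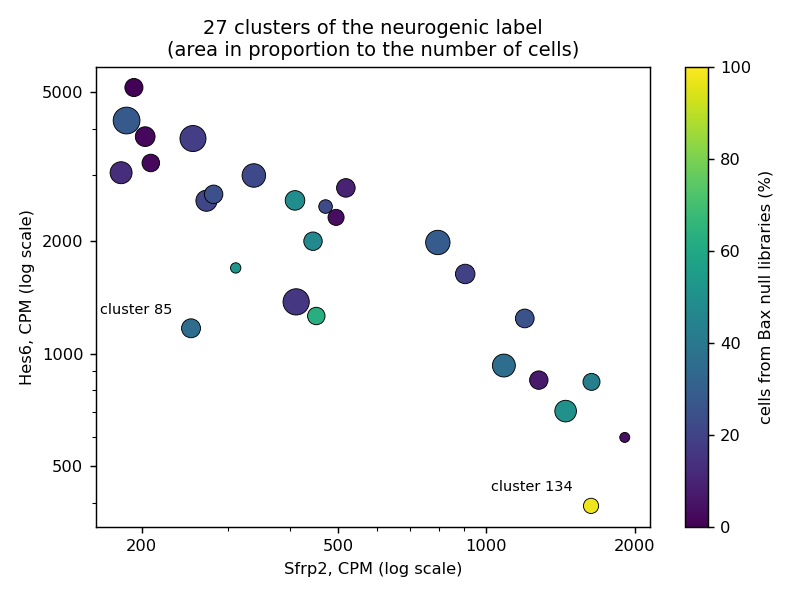
Hes6 against Sfrp2 (both CPM over the pooled cells of a cluster, log axes) for the 27 clusters of the label, with the area of a point in proportion to its cells and its colour the percent of cells from the Bax null libraries. Clusters run from high Hes6 to high Sfrp2, and cluster 134 at the lower right is almost wholly from Bax null libraries.

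Atoh7 was counted in neurogenic cells of both Bax null libraries and in none of the others. It was at 22.5 and 21.1 CPM in Bax null, from 553 UMIs in both libraries together, and at 0 UMIs in all 4 Atoh7 null libraries. A count of 0 allows up to 0.679 CPM in the shallowest of these libraries, so Atoh7 was at least 32.1-fold lower there; floors cover counting error only. Within the Bax null libraries, neurogenic cells held the highest Atoh7 level of the 5 types, above cones at 13.1 and 14.01 CPM, ganglion cells at 7.35 and 10.4, horizontal cells at 3.61 and 8.05 and progenitors at 0.570 and 0.488.

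The share of neurogenic cells was not called different between groups in the fit without a replicate block. It was 19.5% and 21.1% of all cells in Bax het Atoh7 null cells, 16.2% and 18.3% in Bax null cells, and 18.6% and 21.01% in those of Bax null Atoh7 null. Both Bax null libraries were the lowest of the 6. The log2 difference was 0.20 (SE 0.13) for Bax null Atoh7 null against Bax null, with an adjusted p of 0.201 by edgeR's quasi-likelihood test on cell counts with Benjamini-Hochberg adjustment over the cell types. It was 0.24 (SE 0.13, adjusted p 0.125) for Bax het Atoh7 null against Bax null and -0.04 (SE 0.13, adjusted p 0.807) between both Atoh7 null groups, by the same edgeR test. With the shared barcodes left out the first value was 0.21 (adjusted p 0.175, edgeR). With marked doublets left out the value for Bax het Atoh7 null against Bax null was 0.34 (adjusted p 0.0227, edgeR), past the threshold of 0.05. With the replicate number as a block, both differences from Bax null were called, at 0.197 (adjusted p 0.0405, edgeR) and 0.236 (adjusted p 0.0207, edgeR), though the numbers did not pair the libraries. An exact permutation test of 2 libraries against 2 cannot go below p = 0.33.

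Without Atoh7, neurogenic cells held more transcripts of most of the transition genes and fewer of Isl1, Eya2, Gal and Igfbp5 than in the Bax null libraries. Counts were summed per library over the neurogenic cells and tested with edgeR's quasi-likelihood method. From here on levels in comparisons between groups, unless called plain, are CPM scaled by TMM factors (trimmed mean of M values). A gene is called at an adjusted p under 0.05. Of 11670 genes tested, 47.3% were called when Bax null Atoh7 null was set against Bax null, with 23.5% higher and 23.8% lower. For Bax het Atoh7 null against the same Bax null libraries the share was 47.1%, with 23.4% higher and 23.8% lower. Since almost every second gene was called, a call alone says little of a member. Both comparisons use the same Bax null libraries, so a gene's values in both are set side by side and are not independent. The groups did not overlap for 74.9% and 76.2% of the genes tested. Leaving out Bax null replicate 2 brought the numbers of called genes from 5518 and 5499 to 3663 and 3516. By size of change the largest falls included Hist1h2ap, Sumo2, Pgam1 and several genes named as ribosomal protein pseudogenes. Whether counting split reads between similar copies of these genes was not tested. Their values are left as uncertain and are not described further.

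Of the 25 transition genes, 19 were higher and 0 lower in Bax null Atoh7 null cells, with a median log2 difference of 0.71 against 0.0047 over all genes. In Bax het Atoh7 null 20 were higher and 0 lower, with a median of 0.92. With the shared barcodes left out the count was 18, and without the library with the label Bax null Atoh7 null replicate 1 it was 20. When each library contributed the same number of cells per cluster, 942 cells from the 16 clusters that every library filled with at least 30 cells, 13 of 24 tested were higher and 5 lower in Bax null Atoh7 null, with a median of 0.42, and 14 were higher and 4 lower in Bax het Atoh7 null. For the effect in neurogenic cells with equal cluster make-up, the share called over all genes is not given here, so list counts under it have no such comparison. The 6 genes not called in Bax null Atoh7 null with all cells were Gadd45a, Elavl3, Neurod4, Pcdh17, Rasd1 and Rassf4.

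Neurog2 was at 345 and 287 TMM-scaled CPM in Bax null, 734 and 727 in Bax het Atoh7 null libraries and 605 and 797 in those of Bax null Atoh7 null. All 4 Atoh7 null libraries were thus above both Bax null libraries, with log2 differences of 1.15 (SE 0.14, adjusted p 5.8e-05, edgeR) in Bax null Atoh7 null and 1.21 (SE 0.14, adjusted p 4.6e-05, edgeR) in Bax het Atoh7 null. With equal cluster make-up these values were 0.52 and 0.57, both still called. Olig2, a bHLH gene of these transitional cells, rose by 1.71 and 1.75 on the log2 scale, from 18.1 and 14.6 CPM in Bax null to 53.4 to 55.9 CPM in the other libraries; with equal cluster make-up it rose by 0.68 and 0.75. Neurod1, a bHLH gene of photoreceptor and amacrine precursors, rose by 0.71 and 1.16, but with equal cluster make-up the first value was -0.03 and the second 0.39.

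Hes6 and Gadd45a, although they are markers of the label, barely differed. Hes6 was at 2044 and 1846 TMM-scaled CPM in Bax null, 2318 and 2251 in Bax het Atoh7 null libraries and 2427 and 2455 in those of Bax null Atoh7 null. The difference of 0.33 (SE 0.12, adjusted p 0.0448, edgeR) in Bax null Atoh7 null was just inside the threshold and was not called under 11 of 18 alternatives, among them the one with shared barcodes left out (adjusted p 0.0503, edgeR) and those without either Bax null or either Bax het Atoh7 null library (0.25 to 0.40), and 0.23 (adjusted p 0.14, edgeR) in Bax het Atoh7 null was not called, though it was without either Bax null Atoh7 null library (0.23 and 0.23). Gadd45a was at 1366 and 1209 CPM in Bax null against 1057 to 1512 in the other libraries, which overlapped, with log2 differences of -0.0038 and -0.02 (adjusted p 0.987 and 0.943, edgeR). Without Bax null Atoh7 null replicate 2 the first was -0.29 and called.

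Dll1 and Dll3 were higher without Atoh7, Hes1 was lower, and the direction of Dll4 turned with equal cluster make-up. Dll1 was at 49.99 and 45.1 TMM-scaled CPM in Bax null, 91.3 and 99.3 in Bax het Atoh7 null libraries and 74.7 and 80.7 in those of Bax null Atoh7 null, a rise of 0.71 (SE 0.10) and 1.004 (SE 0.10) in Bax null Atoh7 null and Bax het Atoh7 null. Dll3 rose by 1.39 and 1.44, and by 0.47 and 0.61 with equal cluster make-up. Dll4 was at 46.0 and 38.6 CPM in Bax null and at 57.6 to 68.6 in the other libraries, a rise of 0.58 and 0.57, but with equal cluster make-up it was lower, at -0.41 (adjusted p 0.0339, edgeR) and -0.51 (adjusted p 0.0085, edgeR), and without Bax null replicate 2 it was not called (0.45 and 0.45). The receptor gene Notch1 rose by 0.62 and 0.37, the second not called without Bax het Atoh7 null replicate 1 (0.32) or Bax null replicate 2 (0.34) or with equal cluster make-up (0.18). Hes1 fell from 892 and 1094 CPM in Bax null to 61.8 to 97.2 CPM in the 4 other libraries, with log2 differences of -3.88 and -3.48. In plain CPM, Hes1 in progenitors of the same libraries was likewise at 1576 and 1673.5 CPM in Bax null and at 249 to 394 elsewhere. Over the Notch list, 9 of 22 genes tested were higher and 4 lower in Bax null Atoh7 null, and 11 higher and 5 lower in Bax het Atoh7 null. The first count was 8 higher and 4 lower with the shared barcodes left out, and with equal cluster make-up 5 and 5. The median of 0.04 and 0.33 stood beside medians of 0.0047 and -0.0033 over all genes, of which 23.5% and 23.4% were higher and 23.8% lower in each comparison.

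Further members of the transition list rose, though not all of it, and the values of those named here were smaller with equal cluster make-up. Sox4, a SoxC factor of young neurons, was at 482 and 411 TMM-scaled CPM in Bax null and at 1049 to 1257 in the 4 Atoh7 null libraries, a rise of 1.38 and 1.28, and of 1.05 and 0.98 with equal make-up. Btg2, an antiproliferative gene of neurogenic divisions, rose by 0.97 and 0.94 from 392 and 344 CPM to 603 to 813, and by 0.49 and 0.45 with equal make-up. The somatostatin receptor gene Sstr2 rose by 1.64 and 1.75, and by 0.89 and 0.94 with equal make-up. Insm1, a zinc finger gene of basal and endocrine progenitors, rose by 1.09 and 1.63, by 0.55 and 0.96 with equal make-up, and by 0.69 in Bax null Atoh7 null without the library with the label Bax null Atoh7 null replicate 1. Penk rose by 0.61 and 0.92, and with equal make-up differed by -0.23 and 0.11, neither called. Of the members not called in Bax null Atoh7 null, Elavl3, Neurod4 and Pcdh17 were called lower with equal make-up, at -0.32, -0.67 and -0.87. Outside the list, Hes2 rose by 2.92 and 2.79, from 4.53 and 4.79 CPM to 31.6 to 36.6, and by 1.94 and 1.71 with equal make-up, and the granin gene Chga by 3.15 and 3.07, from 3.06 and 3.50 CPM to 22.6 to 35.6.

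The progenitor list was mostly lower. In Bax null Atoh7 null 13 of its 20 genes were lower and 1 was higher, with a median of -0.44, and in Bax het Atoh7 null 14 were lower and 1 higher, with a median of -0.66. With the shared barcodes left out the first count was again 13 lower and 1 higher; with clusters 85 and 134 left out it was 8 lower and 1 higher; with equal cluster make-up it was 7 lower and 2 higher. Sfrp2 was at 872 and 1029 TMM-scaled CPM in Bax null, 584 and 551 in Bax het Atoh7 null libraries and 689 and 570 in those of Bax null Atoh7 null. It fell by 0.59 in Bax null Atoh7 null, but with equal cluster make-up the difference was 0.09, and without Bax null replicate 2 it was -0.47 and with clusters 85 and 134 left out -0.27, both not called. Pax6, a homeobox gene of progenitors and of several neurons, had log2 differences of -1.33 and -0.74, from 999.8 and 1038 CPM to 366 to 622. Id3, an inhibitor of bHLH factors, had -1.55 and -1.71, and -0.99 and -1.12 with equal make-up. The 1 gene that rose was Sox2, by 0.50 and 0.36; the second value was not called without Bax het Atoh7 null replicate 2 (0.24), Bax null replicate 1 (0.29) or Bax null replicate 2 (0.43).

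Cell cycle genes again split by phase. Of 20 S phase genes, 10 were higher and 4 lower in Bax null Atoh7 null, and Mcm6 rose by 0.93 and 1.05, from 68.2 and 78.9 TMM-scaled CPM in Bax null to 135 to 155 in the other libraries. Of 20 genes of G2 and mitosis, 1 was higher and 11 lower, and with equal cluster make-up 2 and 5. Without the shared barcodes, 10 S phase genes were higher and 3 lower, and 1 mitotic gene was higher and 10 lower. Mki67, which marks cycling cells, had log2 differences of -1.47 and -1.504, from 245 and 230 CPM to 74.5 to 93.1. In Bax het Atoh7 null 11 S phase genes were higher and 3 lower, and of the mitotic genes 1 was higher and 8 lower. Over all genes tested 23.5% and 23.4% were higher, and 23.8% lower in each comparison. With a pseudocount of 1 CPM, the neurogenic minus progenitor log2 difference of Mki67 was 0.27 and 0.29 in Bax null and -0.08 to 0.41 elsewhere. That of Mcm6 was -0.38 and -0.24 against -0.33 to -0.08. Neither gene was called in the test against progenitors. The immediate early genes Egr1 and Jun moved apart: Egr1 had log2 differences of -2.30 and -2.54, both lower, and Jun rose by 0.88 and 0.67. Of the 19 stress and cell death genes tested, 5 were higher and 5 lower in Bax null Atoh7 null, with and without the shared barcodes, close to the share over all genes.

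Genes of ganglion cell fate divided into those that were lower without Atoh7 and those that were higher. Of 20 genes tested, 10 were lower and 6 higher in Bax null Atoh7 null, with a median of -0.55. In Bax het Atoh7 null 9 were lower and 5 higher, with a median of -0.16. Over all genes tested 23.8% were lower in each comparison, and 23.5% and 23.4% higher. For Bax null Atoh7 null the count was 9 lower and 4 higher with the shared barcodes left out. With equal cluster make-up it was 10 lower and 2 higher of 19. Isl1, whose promoter holds the E box shown above, was at 48.0 and 47.1 TMM-scaled CPM in Bax null, 9.60 and 8.36 in Bax het Atoh7 null libraries and 7.60 and 8.48 in those of Bax null Atoh7 null. Its log2 differences were -2.57 (SE 0.14, adjusted p 6.4e-08, edgeR) and -2.40 (SE 0.13, adjusted p 9.8e-08, edgeR), called in each of 18 alternatives. Eya2, a transcriptional coactivator and phosphatase, had log2 differences of -2.28 and -2.29, from 95.0 and 76.3 CPM to 15.5 to 19.5. The ganglion cell factor Pou4f2 had log2 differences of -2.23 and -2.56, from 7.37 and 8.93 CPM to 1.02 to 2.64, and Rbpms, an RNA-binding protein of ganglion cells, of -1.31 and -1.44. All 4 of these genes were higher in both Bax null libraries than in any Atoh7 null library.

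Of the neuronal genes of that list, Stmn2 and Gap43 rose, while Nefl and Sncg were lower in both comparisons. Stmn2 was at 221 and 209 TMM-scaled CPM in Bax null and at 462 to 555 in the Atoh7 null libraries, a rise of 1.28 and 1.19, and Gap43, a growth cone gene, rose by 1.05 and 0.94, from 41.9 and 46.0 CPM to 73.3 to 100.7. Stmn2 rose by 0.69 and 0.62 and Gap43 by 0.4999 and 0.47 with equal cluster make-up. The list's change was therefore no common direction of its members. Of the 10 photoreceptor genes tested, 3 were higher and 0 lower in Bax null Atoh7 null, but with equal cluster make-up 0 were higher and 4 lower of 7 tested. Of the 12 amacrine and horizontal genes, 4 were higher and 1 lower. Over all genes tested 23.5% were higher and 23.8% lower, so the higher counts of both lists were near that share. The counts of both lists were the same with the shared barcodes left out. Prox1, a homeobox gene of horizontal cells, rose by 0.95 and 1.09, and Ptf1a, which directs amacrine and horizontal fates, had log2 differences of -1.07 and -0.67. Ptf1a was not called with equal cluster make-up (-0.72 and -0.66). The second Ptf1a value was not called without Bax het Atoh7 null replicate 1 (-0.39), Bax null replicate 1 (-0.64) or Bax null replicate 2 (-0.71). Dlx2, a homeobox gene expressed on the way to ganglion and interneuron fates, had -0.77 and -0.74; without Bax null replicate 1 it was at -0.54 and -0.51 and not called, without the library with the label Bax null Atoh7 null replicate 1 the first was -0.51, and the second value was also not called without Bax het Atoh7 null replicate 1 (-0.63).

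**Figure D3:**
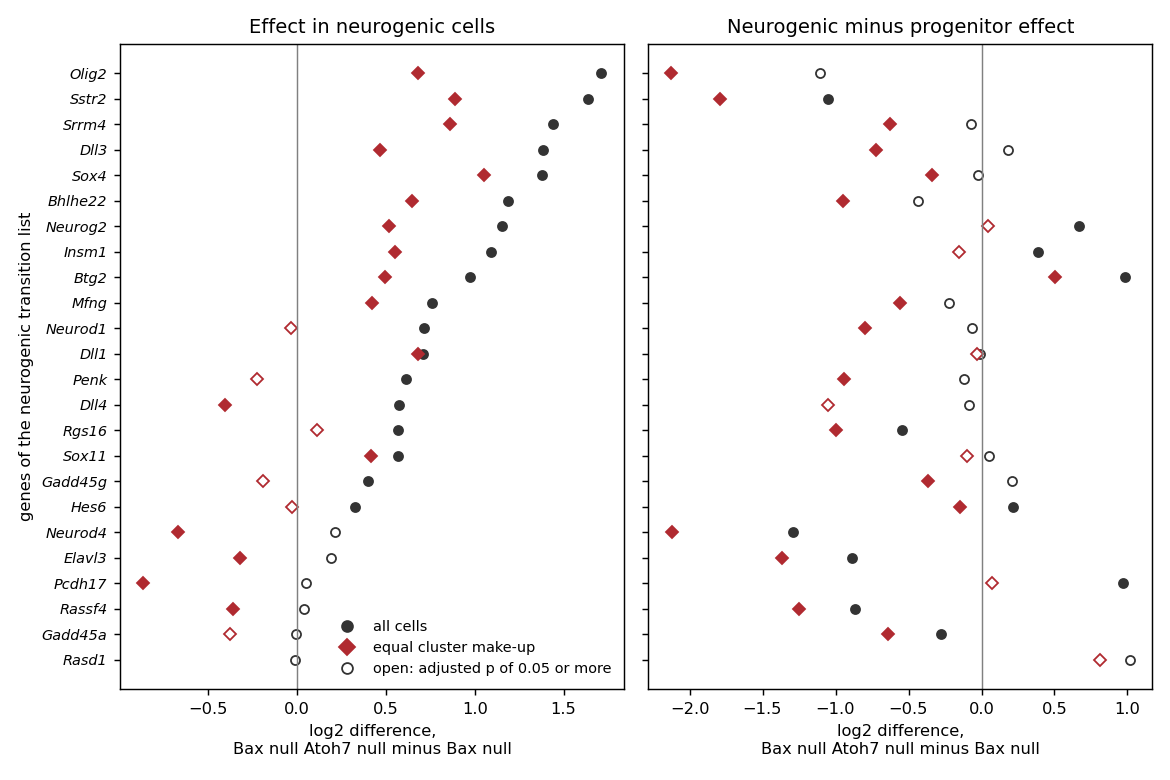
Log2 differences of Bax null Atoh7 null minus Bax null for 24 of the 25 transition genes, within neurogenic cells (left) and as neurogenic minus progenitor effect (right). Black circles use all neurogenic cells and red diamonds equal numbers of cells per cluster, filled where the adjusted p was under 0.05; on the left 18 black circles are filled, all above 0, and on the right 5 are filled above 0 and 6 below.

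Part of these differences was shared with progenitor cells of the same libraries. In an edgeR fit over both cell types with the library as a block, the effect in neurogenic cells differed from that in progenitors for 997 of 13371 genes (7.46%; 563 higher, 4.21%, and 434 lower, 3.25%) in Bax null Atoh7 null against Bax null, and for 1116 (8.35%; 564 higher, 4.22%, and 552 lower, 4.13%) in Bax het Atoh7 null compared with Bax null. The differences between cell types did not overlap between groups for 49.4% and 50.1% of genes. With the shared barcodes left out, 505 were higher and 473 lower in the first comparison. Single libraries moved these numbers: the first was 309 without Bax null replicate 2, 648 with Bax null replicate 1 left out and 577 with Bax null Atoh7 null replicate 2 left out. The second was 416 with Bax null replicate 2 left out, and 699 and 423 when Bax het Atoh7 null was reduced to its replicate 2 or 1. With equal cluster make-up of the neurogenic cells and all progenitors, 351 and 346 genes were called, 2.71% and 2.67% of those tested.

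With all cells, the transition list showed no common direction in this test. Of its 25 genes, 6 had a more positive and 6 a more negative effect in neurogenic cells in Bax null Atoh7 null. The median was -0.06 against 0.02 over all genes. In Bax het Atoh7 null the counts were 5 and 5, with a median of -0.10. Without the library with the label Bax null Atoh7 null replicate 1 the counts were 5 and 3. For Dll1, for example, the plain level in progenitors was 5.03 and 5.03 CPM in Bax null and 12.4 to 17.4 in the other libraries, a gap of the same direction as in neurogenic cells. With equal cluster make-up most of the list was more negative, though fewer of all genes were called, as given above. In Bax null Atoh7 null, 1 of 25 was then more positive and 16 more negative, with a median of -0.62. In Bax het Atoh7 null, 2 were more positive and 18 more negative, with a median of -0.73. Neurog2 had an additional effect of 0.67 and 0.71 that with equal cluster make-up was 0.04 and 0.06, no longer called. Pcdh17, a protocadherin gene, had 0.97 and 1.07 against 0.07 and 0.07. With a pseudocount of 1 CPM, the neurogenic minus progenitor log2 difference of Sstr2 was 5.54 and 5.22 in Bax null and 5.46 to 6.17 elsewhere. Those values overlapped and leaned higher outside Bax null. By the test, in contrast, its rise was smaller in neurogenic cells than in progenitors. With equal make-up the test gave -1.79 and -1.68, both called. With all cells it gave -1.05 (adjusted p 0.0205, edgeR) and -0.87 (adjusted p 0.0669, not called, edgeR). Without the library with the label Bax null Atoh7 null replicate 1 the first was -0.47, and without either Bax null library -1.01 and -1.07, none called.

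Btg2 and Rbpj kept a larger rise in neurogenic cells under each of 15 alternatives. The neurogenic minus progenitor log2 difference of Btg2 was 2.25 and 2.06 in Bax null, 3.13 and 3.19 in Bax het Atoh7 null libraries and 2.98 and 3.40 in those of Bax null Atoh7 null, an additional effect of 0.98 (SE 0.07, adjusted p 7.7e-13, edgeR) and 1.004 (SE 0.07, adjusted p 2.7e-13, edgeR). With equal cluster make-up both values were 0.50. That of Rbpj was 0.66 and 0.64, and 0.31 and 0.28 with equal cluster make-up. Hes6 had 0.21 in Bax null Atoh7 null and 0.11, not called, in Bax het Atoh7 null, and -0.14 and -0.32 with equal make-up. Gadd45a had -0.28 and -0.38, the first not called without either Bax null library (-0.21 and -0.33) or without the library with the label Bax null Atoh7 null replicate 1 (-0.03), the second not without Bax het Atoh7 null replicate 2 (-0.31) or Bax null replicate 1 (-0.32). Rassf4, a Ras association domain gene, had -0.87 in both.

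Among the genes with the largest additional effect were Gal, Isl1, Plekhh2, Acsl6 and Igfbp5 on the lower side. Gal, which encodes the neuropeptide galanin, was at 385 and 356 plain CPM in neurogenic cells of Bax null, at 3.74 and 3.40 in Bax het Atoh7 null libraries and at 3.81 and 5.66 in those of Bax null Atoh7 null. In progenitors of the same libraries it was at 5.91 and 5.34, 1.17 and 1.37, and 0.668 and 0.854 CPM. Gal was also at 84.6 to 698 CPM in ganglion cells and 15.4 to 623 CPM in horizontal cells, again highest in Bax null, and at most 8.76 CPM in cones. Within neurogenic cells the log2 differences were -6.91 and -7.205. The effect minus that in progenitors was -3.38 (SE 0.41, adjusted p 2.0e-07, edgeR) and -4.52 (SE 0.35, adjusted p 2.1e-12, edgeR), called in each of 15 alternatives.

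For Isl1 the additional effect was -2.78 (SE 0.24, adjusted p 4.5e-11, edgeR) and -2.41 (SE 0.25, adjusted p 1.7e-09, edgeR), called in each of 14 alternatives, and -3.55 and -2.53 with equal cluster make-up. Its plain level in progenitors was 1.82 to 4.23 CPM in all 6 libraries, with the Bax null libraries lowest. Igfbp5, a binding protein of insulin-like growth factors, had log2 differences of -2.41 and -2.71 within neurogenic cells and had an additional effect of -1.75 and -1.93, called in each of 15 alternatives. Plekhh2 had -2.03 and -2.19 and the acyl-CoA synthetase gene Acsl6 -1.82 and -2.17, in each of 14. Eya2 had -1.07 (adjusted p 0.0183, edgeR) and -1.01 (adjusted p 0.0318, edgeR), and was not called when some single libraries were left out: the first value was -0.13 without the library with the label Bax null Atoh7 null replicate 1, -0.96 and -1.18 with Bax null replicate 1 or 2 left out. The second was not called without any single one of the Bax het Atoh7 null and Bax null libraries (-0.82 to -1.19). Of the 20 ganglion fate genes, 7 had a more negative and 2 a more positive effect in Bax null Atoh7 null, and 3 and 2 without that library labelled Bax null Atoh7 null replicate 1. In Bax het Atoh7 null the counts were 6 and 1. Rbpms had -0.58 and -0.85, which with equal cluster make-up were -0.18 and -0.51 and not called; the first was also not called without Bax null replicate 2 (-0.53) or Bax null Atoh7 null replicate 2 (-0.52).

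On the higher side stood Fabp7, Ehd4, Cacna1a, Ostf1 and Gap43. Fabp7, a fatty acid-binding protein of neural progenitors, was at 28.4 and 23.1 plain CPM in neurogenic cells of Bax null, 119 and 164 in Bax het Atoh7 null libraries and 149 and 180 in those of Bax null Atoh7 null, and at 5.598 to 16.01 CPM in progenitors of all libraries. Its highest level was in cones, at 380 to 874 CPM. The rise of 2.09 and 1.96 in neurogenic cells exceeded that in progenitors by 1.74 (SE 0.17, adjusted p 1.2e-09, edgeR) and 1.54 (SE 0.17, adjusted p 1.7e-08, edgeR). Ehd4, an endocytic recycling gene, had 1.40 and 1.45, the calcium channel gene Cacna1a 1.31 and 1.34, Ostf1 1.25 and 1.15 and Gap43 1.11 and 1.14. With equal make-up Ostf1 had 0.64 and 0.58 and Gap43 0.59 and 0.67, and without Bax null replicate 2 Fabp7 had 1.16 and 0.96. Of these 5 genes, only Ehd4 lost a call under any alternative run, in Bax het Atoh7 null with counts thinned to equal depth (0.86).

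**Figure D4:**
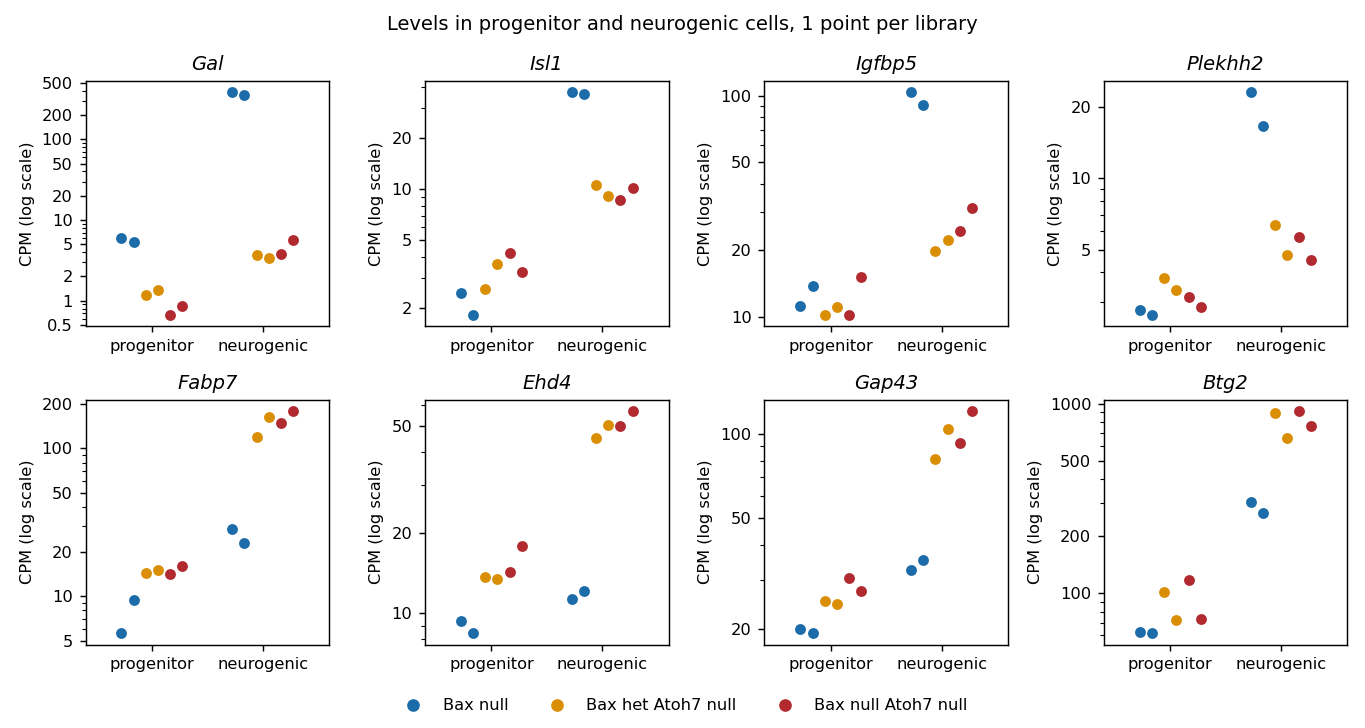
Plain CPM (log axes) of 8 genes in progenitor and neurogenic cells, 1 point per library, coloured by group. In neurogenic cells the Bax null points lie above all others for Gal, Isl1, Igfbp5 and Plekhh2 and below all others for Fabp7, Ehd4, Gap43 and Btg2, with smaller gaps in progenitors.

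The progenitor and mitotic lists held fewer calls with equal cluster make-up. For it, each library was also reduced to 942 neurogenic cells of 16 clusters, and calls over all genes fell too, as given above. With all cells, 4.21% of all genes tested were more positive and 3.25% more negative in Bax null Atoh7 null. In Bax het Atoh7 null these shares were 4.22% and 4.13%. Of the 20 progenitor genes, 14 had a more negative and 0 a more positive effect in neurogenic cells in Bax null Atoh7 null, and 16 and 0 in Bax het Atoh7 null; with equal cluster make-up the counts were 3 and 3, and 5 and 2. Sfrp2 had -0.83 and -1.02, and -0.14 and -0.33 with equal make-up. Of the 20 mitotic genes, 12 were more negative and 0 more positive in Bax null Atoh7 null, and with equal make-up 0 and 1; the median log2 difference of the list was -0.23, and -0.03 with equal make-up. The counts of the progenitor, mitotic, S phase, transition and ganglion lists in Bax null Atoh7 null were the same with the shared barcodes left out. S phase genes were more positive in 7 of 20 and more negative in 0, and with equal make-up again in 7 and 0; without the library with the label Bax null Atoh7 null replicate 1 it was 3 and 0. The Notch target Hey1 had -1.11 and -1.23: its plain level was 30.001 to 48.2 CPM in neurogenic cells of all libraries, while in progenitors it was 14.2 and 11.1 CPM in Bax null and 38.1 to 46.3 elsewhere.

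Levels were also compared within single clusters, here in plain CPM without TMM factors. For Hes6 and Neurog2 above, plain CPM was lower than TMM-scaled CPM in Bax null and higher in the other libraries. The counts and differences below therefore lean towards higher levels without Atoh7. In the 16 clusters that every library filled with at least 30 cells, 9310 cells in all (72.4%), all 4 Atoh7 null libraries were above both Bax null libraries for Sox4, Btg2 and Sstr2 in 16 clusters, for Stmn2 in 15 with 1 in the reverse direction, for Neurog2 in 14 and for Dll3 in 13. Hes6 did so in 9 clusters and Gadd45a in 5, with 1 in the reverse direction. Eya2 was below both Bax null libraries in all 4 in 13 clusters, Isl1 in 8, Pou4f2 in 5 and Dlx2 in 3, with 1 in the reverse direction for Dlx2. The median log2 difference in plain CPM over these clusters was 1.68 for Sox4, 1.39 for Neurog2, 0.24 for Hes6, -1.76 for Eya2 and -1.82 for Isl1. With TMM factors and equal cluster make-up, the values in Bax null Atoh7 null were 1.05 for Sox4, 0.52 for Neurog2 and -0.03 for Hes6. The share of all genes that separated the groups within clusters was not computed, so these counts of chosen genes have no such comparison. In TMM-scaled CPM over all neurogenic cells, the groups did not overlap for 74.9% and 76.2% of genes tested. Clusters of a library are not replicates, so no test was made.

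Between both Atoh7 null groups, which differ in Bax, neurogenic cells were much alike: 206 of 11670 genes were called (1.77%), 205 lower in Bax null Atoh7 null (1.76%) and 1 higher (0.00857%). At an unadjusted p under 0.05 there were 1334. The 1 gene that rose was Ankrd37, an ankyrin repeat gene, at 28.0 and 25.2 TMM-scaled CPM in Bax het Atoh7 null libraries and 41.4 and 40.7 in those of Bax null Atoh7 null, by 0.63 (SE 0.11, adjusted p 0.0144, edgeR); it was not called without either Bax het Atoh7 null library (0.70 and 0.56) or with equal cluster make-up (0.45). The groups did not overlap for this gene, as for 40.2% of all genes. With the shared barcodes left out 138 genes were called, 1 higher and 137 lower. The count was 7 with Bax het Atoh7 null replicate 2 left out, 79 with its replicate 1 left out, 127 and 129 without either Bax null replicate and 466 without the library with the label Bax null Atoh7 null replicate 1.

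Among the genes that fell were Rps29, Rps28, Pet100 and Bax. Rps29, a ribosomal protein gene like Rps28, was at 2025 and 2054 TMM-scaled CPM in Bax het Atoh7 null libraries and at 777 and 442 in those of Bax null Atoh7 null, a fall of 1.74 (adjusted p 0.0032, edgeR), and Rps28 fell by 1.75. Pet100, a cytochrome oxidase assembly gene, fell by 1.70, and Bax by 1.93 (SE 0.41, adjusted p 0.0344, edgeR). The value of Bax was -3.66 and -1.25 without Bax null Atoh7 null replicates 1 and 2. Without Bax het Atoh7 null replicate 2, none of these 4 genes was called; Bax was also not called with shared barcodes left out. Of the transition list 2 of 25 genes fell and 0 rose: Neurod4, a bHLH gene of amacrine and photoreceptor precursors, by 0.76 and Pcdh17 by 0.60. Pax6 fell by 0.60, from 602 and 622 CPM to 443 and 366. Neither Neurod4 nor Pax6 was called with the shared barcodes left out (-0.74 and -0.58). Neurod4 was also not called with equal cluster make-up (-0.67), nor was any of these 3 genes without Bax het Atoh7 null replicate 2 (-0.50 for Neurod4, -0.67 for Pcdh17 and -0.57 for Pax6). Isl1 differed by -0.16 (SE 0.18, adjusted p 0.806, edgeR). In the test against progenitors, edgeR called 0 of 13371 genes (0.0%) between these groups and DESeq2 0, with 640 at an unadjusted p under 0.05, and the differences between cell types did not overlap between groups for 33.7%.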

How the data were processed

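Single-cell libraries of embryonic mouse retina were analysed from 1 table of UMI counts per gene and cell (27998 genes) that the authors deposited with a table of cell types and clusters. The reads had been processed with Cell Ranger 1.2.1 and mm10, per the submitters' processing notes; how cells were filtered, typed and clustered, and whether doublets had been removed, is not given in the sources used here. Values were whole counts, and each cell's sum equalled its deposited total in 67050 of 67050 cells. The cell table also held 2 further libraries, which were not used. No cell was filtered out.

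Counts were summed per library over the neurogenic cells (4416522 to 14099758 UMIs per library) and, for the second model, over progenitor cells. Both were tested with edgeR 4.0.16 (filterByExpr, TMM, quasi-likelihood F test, two-sided, Benjamini-Hochberg over all genes tested, threshold 0.05; R 4.3.3). All 6 libraries shared 1 estimate of the spread; the second model had the library as a block and tested the interaction of cell type and group. Both models were tested on simulated data. Levels between cell types and within single clusters are plain CPM, and log2 ratios of these levels use a pseudocount of 1 CPM. Doublet scores came from Scrublet in scanpy 1.11.5, and cluster, level and share tables from Python 3.11.15 and pandas 2.3.3. Coordinates and RefSeq promoters are on GRCm38, and 27722 gene identifiers (99.0%) were found in GENCODE M21.

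The gene lists and the cells described were chosen with earlier results of these data known. Named genes are members of those lists, up to 8 genes per direction and contrast with the largest called change, at least 20 CPM and groups that do not overlap, and up to 20 genes with the highest lowest ratio to other cell types; of these, those described in the text were picked after their values were seen. The values of 1 member of the transition list, which is in its counts, are not reported here. Alternatives were DESeq2 1.42.0, RLE size factors, a fit with only the 4 libraries compared, all genes without a count filter, a replicate block, thinned counts, cells under 1000 UMIs left out, doublets left out and each library left out in turn. For shares they were limma 3.58.1 on logit shares, also among neurogenic and progenitor cells alone, and TMM over cell types. Leaving out shared barcodes, shared clusters, equal cluster make-up and leaving out clusters with other markers were added after seeing the data.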

Additional observations from a re-analysis of the deposited data

Results flagged for a closer look

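The effect of a group in neurogenic cells differed from the effect in progenitor cells, by the interaction test in edgeR, for 997 genes in Bax null Atoh7 null against Bax null and for 1116 genes when Bax het Atoh7 null was compared with it. Both comparisons use the same Bax null libraries, which stood apart in depth and in mitochondrial and blood transcripts. For each gene the first log2 value below is for Bax null Atoh7 null and the second for Bax het Atoh7 null, each the effect in neurogenic minus that in progenitor cells.

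Negative values were found for the following genes. Gal had -3.38 and -4.52, Isl1 -2.78 and -2.41, Plekhh2 -2.03 and -2.19, Acsl6 -1.82 and -2.17, Igfbp5 -1.75 and -1.93, Eya2 -1.07 and -1.01, and Rbpms -0.58 and -0.85. Among Notch, progenitor and transition genes, Hey1 had -1.11 and -1.23, Sfrp2 -0.83 and -1.02, Rassf4 -0.87 and -0.87, and Gadd45a -0.28 and -0.38. Sstr2 had -1.05 in Bax null Atoh7 null.

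Positive values were found for Fabp7 at 1.74 and 1.54, Ehd4 at 1.40 and 1.45, Cacna1a at 1.31 and 1.34, Ostf1 at 1.25 and 1.15, and the growth cone gene Gap43 at 1.11 and 1.14. The transition genes Btg2, Pcdh17 and Neurog2 had 0.98 and 1.004, 0.97 and 1.07, and 0.67 and 0.71. The DNA-binding Notch partner Rbpj had 0.66 and 0.64, and Hes6 had 0.21 in Bax null Atoh7 null. With 2 libraries per group, no sample could be tested for lying apart from its group.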

How the results depend on the processing

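Depth and 2 libraries per group limit these results, and in contrasts with Bax null, genotype cannot be told apart from whatever else set these libraries apart. For the single genes named, 2145 values were computed under alternatives for 127 gene results; under the alternatives planned 1586 kept their direction and side of the threshold, 80 fell short of it, 9 newly passed it and 6 reversed, and under those added 420, 28, 2 and 14 did so. The causes of changes were not tested.

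Calls between both Atoh7 null groups were 517 with no filter and 126 with only the 4 libraries compared. Genes whose effect differed between neurogenic and progenitor cells numbered, for Bax null Atoh7 null and Bax het Atoh7 null against Bax null, 229 and 284 with DESeq2, 370 and 402 with thinned counts, 351 and 346 with equal cluster make-up, and 636 and 741 with clusters of other markers left out. Between the Atoh7 null groups they were 4 with no filter, 2 with equal make-up and 1 with the replicate block. Leaving out each library gave 3663 to 5401, 7 to 466 and 3516 to 6053 calls for Bax null Atoh7 null against Bax null, against Bax het Atoh7 null, and for Bax het Atoh7 null against Bax null, and 309 to 966, 0 to 16 and 416 to 1298 for the difference from progenitors. Without either of 2 libraries a group held 1 library, which was assumed to vary like the others.

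The log2 difference in the share of neurogenic cells was 0.3414 with doublets left out (adjusted p 0.0227, edgeR) for Bax het Atoh7 null against Bax null. Between both Atoh7 null groups it was 0.0003298 with TMM over cell types and -0.128 to 0.0479 without single libraries. Same-numbered replicates deviated with correlations of -0.0201, 0.2249 and -0.0972, so the numbers did not pair the libraries; with the replicate block the shares differed by 0.1974 (adjusted p 0.0405, edgeR) and 0.236 (adjusted p 0.0207, edgeR) from Bax null.

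Direction changed as follows, Bax null Atoh7 null first where both are given. With equal cluster make-up Dll4 was at -0.41 and -0.51, Penk was at -0.23, Hes6 at -0.030 and -0.19, Neurod1 at -0.034 and Sfrp2 at 0.091, and the effect of Hes6 minus that in progenitors was -0.14 and -0.32. In shared clusters Dll4 was at -0.057 and -0.14, Penk was at -9.46e-05 and Hes6 in Bax het Atoh7 null at -0.058. The difference from progenitors of Hes6 in Bax het Atoh7 null was -0.074 with doublets left out and -0.079 with clusters of other markers left out. Gadd45a was at 0.0016 with only the 4 libraries compared, and without single libraries at -0.29 to 0.21 and -0.10 to 0.075. Isl1 between the Atoh7 null groups was at 0.12 with doublets left out.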
